A study of Mus musculus with 4 samples.

Results

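Ectodysplasin is a signal of the tumour necrosis factor (TNF) family that ectodermal organs such as teeth, hair and sweat glands need to form. The 9 genes described here run from that ligand to the transcription factor it acts through: the ligand Eda, its receptors Edar and Eda2r, the related receptor Tnfrsf19, the adaptors Edaradd and Traf6, and the NF-kB genes Ikbkg, Nfkbia and Rela. They were chosen by name, as every probe set whose annotated gene is exactly 1 of the 9. This gave 33 of the 34958 probe sets that name a single gene, and 9 of the 18194 genes so named. No probe set named a member together with another gene (0 found).

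In the pathway, the ligand is cut from the cell surface and binds Edar, a death domain receptor. Edar recruits Edaradd, which brings in Traf6 and the kinase complex that contains Ikbkg. That complex marks the inhibitor encoded by Nfkbia for destruction, which frees Rela to enter the nucleus. In mice, loss of Eda, of Edar or of Edaradd gives much the same outcome, with sparse hair and molars whose cusps are reduced and shallow. The pathway is best known in the embryonic tooth, where Edar marks the epithelial signalling centres that place the cusps.

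The RNA came from molar teeth of 60 Swiss Webster pups of both sexes, aged 1 to 10 days after birth, taken out by hand and combined into 1 pool. The pool was hybridised to 4 Affymetrix arrays, which form 1 group with no treated or control counterpart analysed here. The SDs below are therefore technical, p-values measure only the spread between arrays of 1 pool, and neither age, sex, animals nor cell types can be separated. In such a bulk sample, fewer cells of a type and less RNA per cell cannot be told apart. Marker genes were chosen with earlier results of these data known, so their counts do not test the labelled tissue. Above background, as defined below, were 6 of 6 enamel epithelium genes and 6 of 6 odontoblast and mesenchyme genes. The share among all named genes was 51.6%. The counts were 6 of 6 for oral and cornified epithelium, 5 of 5 for endothelium and 4 of 7 for immune cells. Cd3e, Cd79a and Itgam were not above, and the immune count lies near the share of all genes. The limma test described below called 3 of the 7 immune genes, against 50.9% of all genes. The part that these cells have in the signals below was not tested.

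Each probe set, a group of short probes for 1 transcript, has a signal in arbitrary units on a linear scale. The background threshold was the 95th percentile of 86 probe sets for odour, pheromone and taste receptor genes. It was 996, 1097, 1295 and 1266 signal units on arrays 1 to 4. A probe set counted as above background when it exceeded the threshold of each of the 4 arrays, and a gene when any of its probe sets did. Probes differ in how strongly they bind, so signals of different probe sets are not compared as amounts of mRNA.

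Above background were 5 of the 9 member genes, namely the ligand Eda, the receptor Tnfrsf19 and the 3 NF-kB genes Ikbkg, Nfkbia and Rela. Not above background were the 4 genes Edar, Eda2r, Edaradd and Traf6, which are the ectodysplasin receptors and both adaptors. Edar and Eda2r stayed below in all of the 12 alternatives run, whereas Edaradd passed in 4 and Traf6 in 5 of them, each having missed the threshold on 1 array by its brightest probe set. The difference between the genes was not tested. Among all named genes 51.6% were above background, so the members' count lies close to that share. The share depends on how many probe sets a gene has, being 35.2% for genes with 1 probe set and 82.1% for genes with 4 or more. Eda, Edaradd, Traf6, Ikbkg and Nfkbia had 4 or more, and of these Edaradd and Traf6 were not above background. Eda2r and Rela had 1, and Rela was above background. By probe set, 15 of 33 members were above background, against 42.5% of all probe sets that name a single gene. The median log2 signal was 10.44 over the 33 member probe sets and 10.05 over all probe sets that name a single gene.

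**Figure D1:**
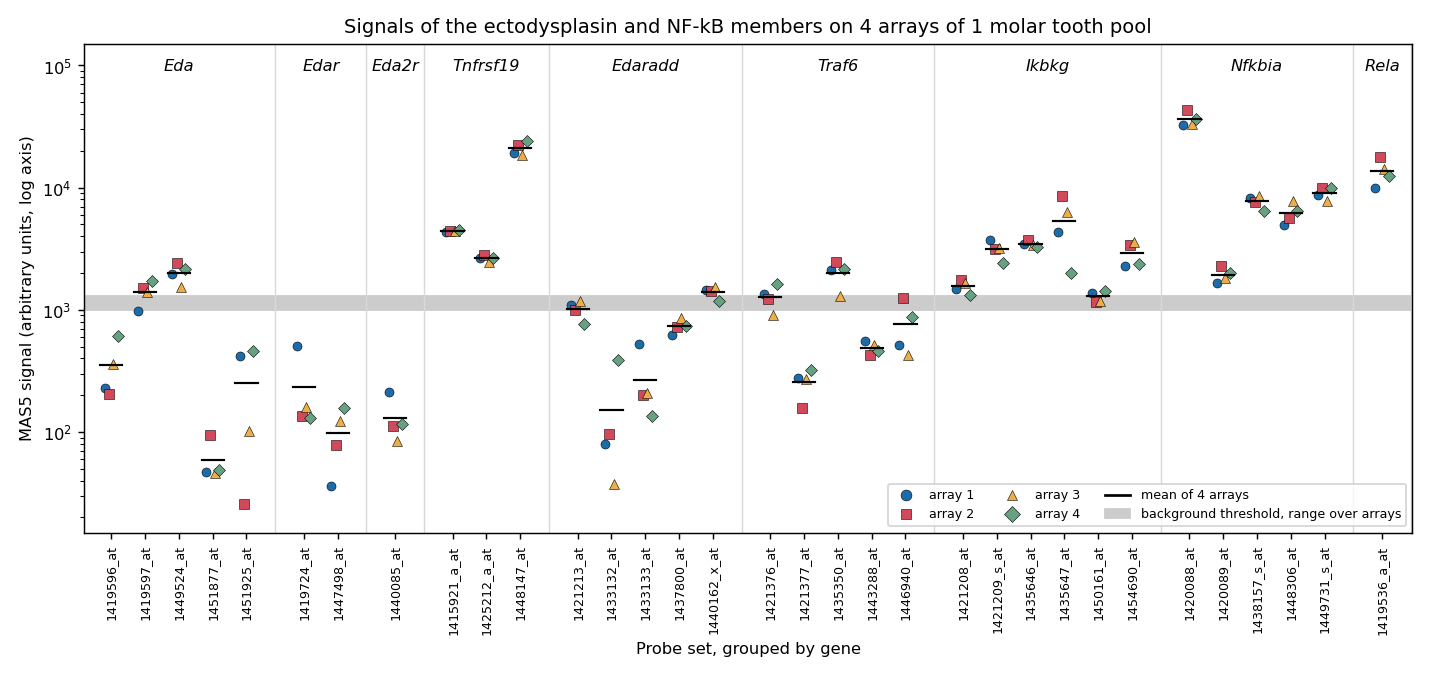
MAS5 signal on a log axis for each of the 33 member probe sets, grouped by gene from ligand to transcription factor, with 1 point per array, a black line at the mean of the 4 arrays and a grey band for the range of the background threshold (996 to 1295). All points of Tnfrsf19, Nfkbia and Rela lie above the band, all points of Edar and Eda2r lie below it, and Eda, Edaradd, Traf6 and Ikbkg have probe sets close to it.

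Eda, the ligand, was above background through 1 of its 5 probe sets. Probe set 1449524_at gave signals of 1961, 2417, 1542 and 2142 on arrays 1 to 4. It was 1.19 to 2.20 times the threshold of the array (limma one-sided adjusted p = 0.000808). A second probe set, 1419597_at, gave 981, 1502, 1392 and 1708, and fell short only on array 1, where the threshold was 996 (limma adjusted p = 0.295). The other 3 probe sets exceeded the threshold on 0 arrays. Their means were 351 ± 187 for 1419596_at, 250 ± 218 for 1451925_at and 59.2 ± 23.6 for 1451877_at (SD, n = 4). The call rests on the brightest of the 5 probe sets. With the median probe set taken to stand for a gene, Eda was not above background.

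Edar, the receptor of ectodysplasin, was not above background on any array by either of its 2 probe sets. Probe set 1419724_at gave signals of 507, 136, 160 and 130, between 0.103 and 0.509 of the threshold. Array 1 stood apart there and was still below its threshold of 996. Probe set 1447498_at gave 36.0, 78.2, 122 and 157, with array 1 the lowest, so the 2 probe sets did not share a high array. Eda2r, which encodes the X-linked receptor that binds another splice form of the ligand, had 1 probe set. Its signals were 211, 113, 83.6 and 116, at most 0.212 of the threshold. A signal below the threshold bounds what these probes could show in a mixed pool and does not show that a transcript was missing.

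Tnfrsf19, also called Troy, encodes a receptor of the same family that resembles Edar in sequence. All 3 of its probe sets were above background. Probe set 1448147_at gave 19251, 22318, 18528 and 24285, which is 14.3 to 20.3 times the threshold (limma adjusted p = 1.75e-14). Probe set 1415921_a_at gave 4300, 4403, 4441 and 4514, and 1425212_a_at gave 2648, 2799, 2485 and 2649. The arrays agreed closely for both, with an SD of log2 signal of 0.03 and 0.07, against medians of 0.16 and 0.21 for probe sets of similar signal. All of the 12 alternatives run kept the gene above background.

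Edaradd, the death domain adaptor of Edar, was not above background by any of its 5 probe sets. Its brightest, 1440162_x_at, gave 1454, 1415, 1529 and 1179, and missed the call on array 4 alone, where the threshold was 1266 (limma adjusted p = 0.254). Without array 4 the gene was above background. The suffix _x of this brightest probe set marks probes that may also match other transcripts. Probe set 1421213_at exceeded the threshold on 1 array, with a mean of 1008 ± 180. The remaining 3 exceeded it on 0 arrays, with means of 738 ± 96.5 for 1437800_at, 267 ± 174 for 1433133_at and 151 ± 162 for 1433132_at (SD, n = 4).

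Traf6, the ubiquitin ligase that links several TNF family and Toll-like receptors to NF-kB, was not above background by any of its 5 probe sets. The brightest exceeded the threshold on 3 arrays. Probe set 1435350_at gave 2116, 2477, 1291 and 2160. Array 3 was low, and its signal of 1291 was 0.997 of the threshold there (1295), which alone kept the gene from the call. Without array 3 the gene was above background. The limma test on the mean of the 4 arrays did call this probe set (log2 ratio to the threshold 0.76, SE 0.20, adjusted p = 0.00249). Probe set 1421376_at gave 1348, 1229, 902 and 1641 and also missed on array 3 (limma adjusted p = 0.769). The other 3 probe sets had means of 764 ± 372, 489 ± 55.1 and 258 ± 70.6 and exceeded the threshold on 1, 0 and 0 arrays. Of the 5 member probe sets that exceeded the threshold on 3 arrays, 3 missed it on array 3, which had the highest threshold, 1 on array 1 and 1 on array 4.

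Ikbkg encodes the regulatory subunit of the kinase complex, known as NEMO, and is X-linked like Eda and Eda2r. It was above background by 5 of 6 probe sets. Probe set 1435646_at gave 3458, 3725, 3399 and 3293, at least 2.60 times the threshold (limma adjusted p = 2.05e-08). The brightest, 1435647_at, gave 4314, 8594, 6374 and 2007, a 4.28-fold range between arrays of the same RNA. Its SD of log2 signal was 0.91, against a median of 0.16 for probe sets of similar signal, while 1435646_at had 0.08 against 0.19. Probe set 1421209_s_at gave 3696, 3175, 3193 and 2424, and 1454690_at gave 2289, 3367, 3599 and 2382. Array 4 gave the lowest signal of the 4 for 4 of the 5 probe sets that were called. The weakest called probe set, 1421208_at, gave 1487, 1762, 1656 and 1319, and the limma test did not call it (adjusted p = 0.052). The remaining probe set, 1450161_at, gave 1379, 1157, 1191 and 1418 and missed on array 3.

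Nfkbia encodes the inhibitor that holds NF-kB in the cytoplasm and is itself switched on by NF-kB, which closes a feedback loop. All 5 of its probe sets were above background. Probe set 1420088_at gave 32842, 43202, 33499 and 36810, which is 25.9 to 39.4 times the threshold (limma adjusted p = 5.54e-15). The next, 1449731_s_at, gave 8688, 10015, 7817 and 9858. Probe set 1438157_s_at gave 8284, 7654, 8617 and 6442. The 4 arrays did not keep 1 order across these probe sets, array 1 being the lowest for 3 of the 5, array 3 for 1 and array 4 for 1. Probe set 1448306_at gave 4954, 5636, 7768 and 6456. The dimmest, 1420089_at, gave 1656, 2276, 1807 and 1987, at least 1.40 times the threshold.

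The stretch of 250 bases before the transcription start is shown for Nfkbia and Edar. Nfkbia was taken because its probe set 1420088_at had the highest ratio to the threshold among the member probe sets. NF-kB is also reported to act through the Nfkbia promoter in the feedback loop, which was not tested here. Edar was taken because its probe sets were not above background. Sequences are from RefSeq, build GRCm38.p6, read 5′ to 3′ on the gene's strand. Nfkbia lies on the minus strand at chr12:55492648-55492897 and Edar on the minus strand at chr10:58675697-58675946. Capitals mark matches, on either strand, to the kappa B consensus motif or to the shorter GGANNTTCC, a motif chosen after the Nfkbia sequence was seen.
Nfkbia: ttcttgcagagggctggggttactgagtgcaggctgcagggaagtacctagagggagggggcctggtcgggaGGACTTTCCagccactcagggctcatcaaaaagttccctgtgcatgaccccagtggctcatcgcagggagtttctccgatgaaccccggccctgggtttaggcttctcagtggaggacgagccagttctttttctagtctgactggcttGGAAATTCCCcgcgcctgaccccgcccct
Edar: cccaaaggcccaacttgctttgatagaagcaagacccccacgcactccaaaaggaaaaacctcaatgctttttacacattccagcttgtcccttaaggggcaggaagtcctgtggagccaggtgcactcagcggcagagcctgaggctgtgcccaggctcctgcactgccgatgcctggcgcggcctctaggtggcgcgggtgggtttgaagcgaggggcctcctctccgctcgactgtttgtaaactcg

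In the Nfkbia stretch the consensus motif matched on the strand opposite to the gene, from 29 to 20 bases before the start, and GGANNTTCC matched within those bases and again from 178 to 170 bases before the start. Among the 13 promoters listed for the 9 members, 1 (that of Nfkbia) held either motif and 0 others did. Of 32851 mouse promoters of the same length, 7.25% held the consensus motif, 3.59% held GGANNTTCC and 9.18% held either. A match describes letters and not a bound site, and these arrays did not measure binding.

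Rela encodes an NF-kB subunit that carries an activation domain. It had 1 probe set, 1419536_a_at, which gave 9965, 17957, 14303 and 12540, with array 1 low and array 2 high. It was at least 9.90 times the threshold (limma adjusted p = 4.26e-13). Its SD of log2 signal was 0.36, against a median of 0.13 for probe sets of similar signal. The mRNA level does not report whether the protein was nuclear or active.

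The one-sided limma test of log2 signal over threshold, adjusted over all probe sets, called 15 of the 33 member probe sets, against 41.8% of all probe sets that name a single gene. At the level of genes it called 6 of the 9 members, the 5 above plus Traf6, against 50.9% of all genes. Edar, Eda2r and Edaradd had no probe set called. Unadjusted, 16 of the 33 had a p under 0.05.

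**Figure D2:**
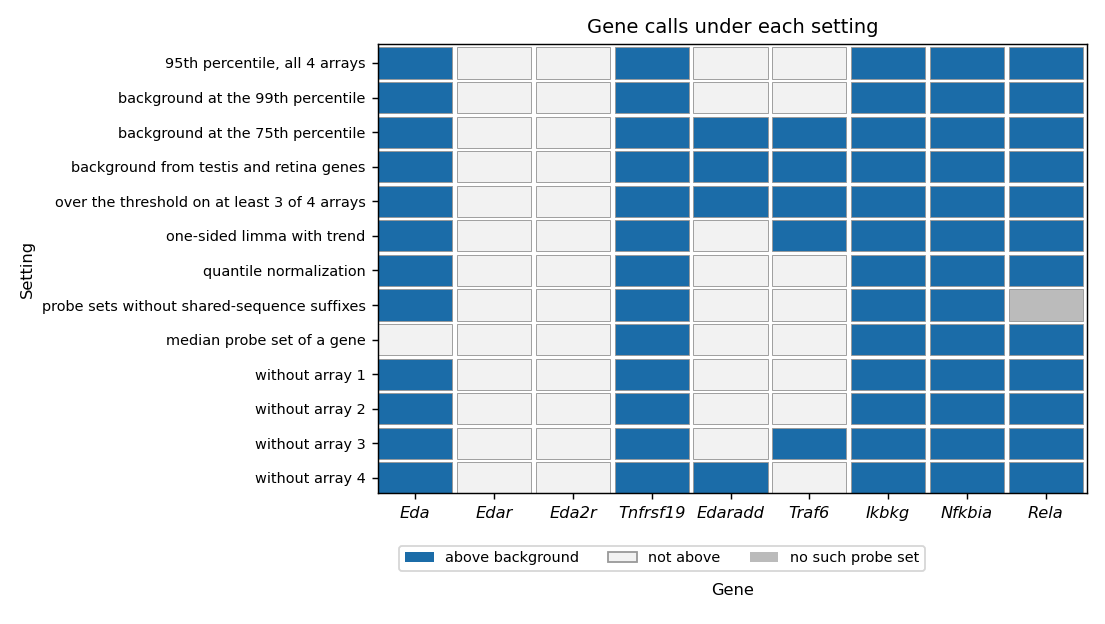
Gene calls under the setting used in the text (top row) and under each of the 12 alternatives, with a filled cell where the gene was above background. Tnfrsf19, Ikbkg and Nfkbia are filled throughout, Edar and Eda2r are empty throughout, and Edaradd and Traf6 change with the setting, in 4 and 5 of 12 alternatives. Rela could not be called without shared-sequence suffixes, because its 1 probe set ends in _a, a suffix left out there along with _s and _x.

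The spread between arrays was smaller in the median for brighter member probe sets, with overlap between the 2 kinds. The median SD of log2 signal was 0.19 for the 15 member probe sets above background and 0.48 for the 18 that were not, compared with 0.17 and 0.64 for all probe sets of each kind. Against probe sets of similar mean signal, 16 of the 33 had a larger SD and 17 did not. Among those above background, 10 of 15 had a larger SD, led by Ikbkg 1435647_at at 5.69 times and Rela at 2.77 times the median of similar probe sets. The large SD of dim probe sets, such as Eda 1451925_at with 1.96, limits what can be said of single arrays there.

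**Figure D3:**
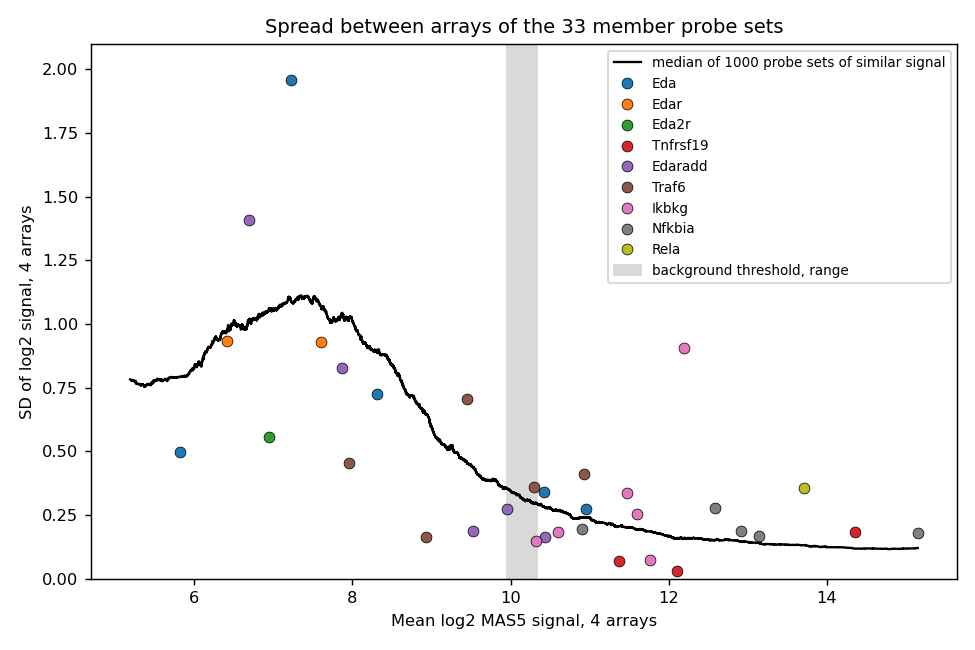
SD of log2 signal over the 4 arrays against mean log2 signal for the 33 member probe sets (points, coloured by gene), with the running median of 1000 probe sets of similar signal (line) and the range of the background threshold (grey band). The running median is lower at high signal than at low signal, and Ikbkg 1435647_at at an SD of 0.91 and Rela at 0.36 lie above the line among the bright probe sets.

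Other genes of the pathway came from 7 lists that hold 98 genes, of which 86 were measured by a probe set naming that gene alone and 32 (37.2%) were above background, against 51.6% of all genes. Signals printed for list genes are those of the gene's probe set with the highest mean log2 signal. Other probe sets of the same gene can lie below background. Genes acting before the ligand and receptor were mostly above background, at 4 of 5. Ctnnb1, for the beta-catenin of Wnt signalling, gave 92346, 104642, 98740 and 108347. Trp63, a master regulator of stratified epithelium, gave 37265, 22398, 25563 and 21805, with array 1 high. Wnt6, a ligand of oral and dental epithelium, had a mean of 17507 ± 2255 (SD, n = 4). Inhba, for the activin subunit made in dental mesenchyme, gave 1595, 1625, 1508 and 1209 and missed the threshold on array 4.

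Relay proteins and brakes of the pathway were above background for 9 of 13 measured genes, against 51.6% of all genes. Tab2, which bridges Traf6 to the kinase encoded by Map3k7, gave 17292, 17246, 17600 and 16871. Ube2n, the enzyme that builds ubiquitin chains with Traf6, had a mean of 12362 ± 1584. Furin, the protease that releases ectodysplasin from the cell surface, had 7311 ± 644 (SD, n = 4). Map3k14, the kinase of the alternative NF-kB route, exceeded the threshold on 3 arrays (1415 ± 214). Traf1 exceeded it on 0 (581 ± 390).

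NF-kB subunits, kinases and inhibitors other than the members were above background for 2 of 9 measured genes, both by the call and by limma. Among all genes the shares were 51.6% and 50.9%. Ikbkb, for a catalytic subunit of the kinase complex, was above background by 2 of its 5 probe sets. The brightest gave 7717, 7249, 6057 and 8367. Nfkbib, a second inhibitor gene, was above background by 1 of its 2 probe sets, which gave 3504, 3271, 2784 and 2897. Bcl3 had 115 ± 114 and Nfkb2 914 ± 508 (SD, n = 4), and neither was above background. The count was 4 of 9 with the 75th percentile as background (65.3% of all genes), 3 with testis and retina genes (58.3%), 1 without shared-sequence suffixes (46.6%) and 0 with the median probe set of a gene (39.3%). The genes Chuk and Nfkb1 had no probe set naming them alone and were not analysed here.

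Genes reported as ectodysplasin targets in teeth and skin appendages were above background for 3 of 11 measured genes, against 51.6% of all genes. The count was 5 with the 75th percentile as background (65.3% of all genes) and 4 with testis and retina genes (58.3%). Shh, the hedgehog ligand of dental epithelium, gave 56349, 65186, 59642 and 75356. Wnt10a, a Wnt ligand of dental epithelium, gave 17384, 20149, 17454 and 20610. Fst, for the activin inhibitor follistatin, had a mean of 2451 ± 441. Cx3cl1 (1249 ± 359, over the threshold on 2 arrays) and Cxcl10 (235 ± 200, on 0 arrays), both chemokine genes, were not above background. A steady signal of a target gene in 1 pool does not tell which signal maintained it. Targets of NF-kB in general gave 7 of 12, against 51.6% of all genes. Gadd45b had 14832 ± 2519, Sod2 12594 ± 635 and Bcl2l1 8421 ± 1029 (SD, n = 4). Ccl2 (375 ± 267) and Ccl5 (90.9 ± 85.4), chemokine genes of inflammation, exceeded the threshold on 0 arrays.

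Within the TNF superfamily, Eda and Tnfrsf19 were set beside their relatives. Of the 13 other ligand genes measured, 0 were above background, against 51.6% of all genes. These ligand genes had 20 probe sets in all, with 0 above background, whereas Eda had 5 and passed by 1. Among all genes the share was 35.2% with 1 probe set and 82.1% with 4 or more. The limma test also called 0 of the 13, and 0 had an unadjusted p under 0.05. With the 75th percentile as background the count was 1 (65.3% of all genes). Cd40lg had 509 ± 334 and Cd70 327 ± 213, both over the threshold on 0 arrays. The ligand genes Tnfsf12, Tnfsf13, Tnfsf15 and Tnfsf18 had no probe set naming them alone and were not analysed here. Of the 24 other receptor genes measured, 7 were above background and 8 were called by limma, against 51.6% and 50.9% of all genes. The count was 14 with the 75th percentile as background (65.3% of all genes) and 10 with testis and retina genes (58.3%). They were led by Relt (13553, 16636, 14392 and 15073), Tnfrsf1a, a receptor of TNF itself (8054, 9258, 8108 and 12554), and Ltbr, the lymphotoxin beta receptor (5212 ± 419). Cd27 (196 ± 108, over the threshold on 0 arrays) and Cd40 (1580 ± 582, on 3 arrays) were not above background. Whether Eda or Tnfrsf19 differs from its relatives was not tested.

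**Figure D4:**
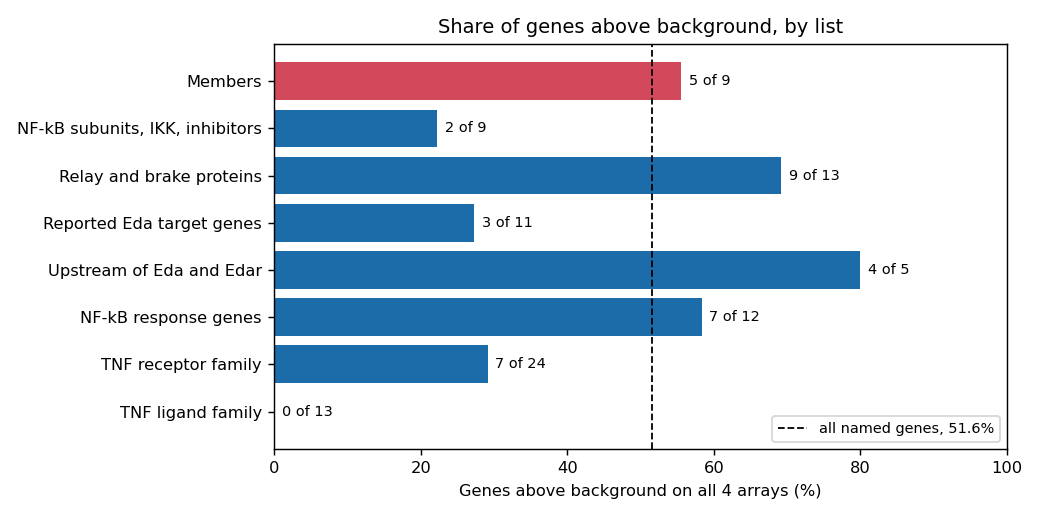
Percentage of measured genes above background on all 4 arrays for the 9 members (red) and the 7 pathway lists (blue), with the counts printed at the bars and the share of all named genes (51.6%) as a dashed line. The TNF ligand family has 0 of 13, and the TNF receptor family, the NF-kB subunits and the reported Eda targets lie below the line.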

How the data were processed

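RNA of 1 molar tooth pool was measured on 4 arrays, numbered by their titles. The deposited table holds linear signal intensity values for 45101 probe sets. The authors summarised probes with MAS5, as the submitters' processing notes record. That method takes mismatch probes off the signal and so adds noise to dim values. Its version and settings, not given in the sources used here, could shift low values further. The mean without the lowest and highest 2% of deposited intensity values was 2500 on each array, so arrays share 1 linear scaling. Of the array pairs, 0 held identical values. The number of arrays limits precision.

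Gene names come from the platform annotation, and for 34754 of 34958 probe sets naming 1 gene the gene ID matched the reference gene table, which changed 0 symbols. Log2 signal over threshold was tested against 0 with one-sided limma 3.58.1 (R 4.3.3) with a mean-variance trend and Benjamini-Hochberg adjustment over all probe sets. Similar probe sets were the 1000 nearest in mean log2 signal. Promoters were matched by symbol for 9 of 9 members.

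Members and lists were chosen with earlier results of these data known. Named genes were all members and, per list, the 3 brightest above background and up to 2 not above in alphabetical order; Itgam and genes without a probe set were named beyond this rule. Alternatives were the 99th and 75th percentile, testis and retina genes as background, 3 of 4 arrays, limma and quantile normalization. Others were no shared-sequence suffixes (_a, _s or _x), the median probe set and leaving out each array.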

Additional observations from a re-analysis of the deposited data

Results flagged for a closer look

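A gap test on 35 sets of 4 values, the 33 member probe sets and 2 per-array summaries of them, found 2 with a lone distant array. Chance gives about 5% of sets. Both are far below the threshold. Edar 1419724_at had 507 on array 1, against 130 to 160 on the other arrays. Eda 1451877_at had 94.6 on array 2, against 46.0 to 49.3 on the others. The cause was not tested.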

How the results depend on the processing

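The count of member genes above background was 5 of 9 and ranged from 4 to 7 over the 12 alternatives, and 5 to 6 when 1 array was left out. The highest count, 7, came with the 75th percentile, where 65.3% of all genes passed, with the testis and retina background (58.3%) and with 3 of 4 arrays (55.9%). Edar and Eda2r were above background in 0 of 12 alternatives, Tnfrsf19, Ikbkg and Nfkbia in 12 of 12, and Rela in 11 of the 11 that could be run. Traf6 was above background with the 75th percentile, the testis and retina background, 3 of 4 arrays, limma and without array 3. Edaradd was above background with the first 3 of these and without array 4. Eda was lost with the median probe set. The count of member probe sets was 15 of 33. It was 22 with the 75th percentile, 20 with the testis and retina background, 20 with 3 of 4 arrays, 9 of the 26 without shared-sequence suffixes, and 15 to 18 without 1 array. The pathway lists gave 32 of 86 genes above background (51.6% of all genes). The count was 50 with the 75th percentile (65.3%) and 32 to 35 without 1 array (51.8% to 54.1%). Lower counts came with the 99th percentile at 31 (48.2%), without shared-sequence suffixes at 26 (46.6%) and with the median probe set at 24 (39.3%). The median SD of log2 signal of the members was 0.278, 0.316 after quantile normalization and 0.23 to 0.325 without 1 array. Quantile normalization moved the median log2 signal of an array by -0.096 to 0.114 and changed no member's call. No paired analysis was possible because the 4 arrays form 1 group. Depth here is signal over background: the median SD of log2 signal was 0.64 for all probe sets not above background and 0.17 for all those above. That limits the dim values of Edar, Eda2r and the Edaradd probe sets 1433132_at and 1433133_at. The brighter Edaradd probe sets 1440162_x_at, 1421213_at and 1437800_at had SDs of 0.16, 0.27 and 0.19.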
